A study of Homo sapiens with 4 samples.

Results

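Cytosolic ribosomal protein genes were examined in 2 lists of m7G peaks from HepG2, a human hepatocellular carcinoma cell line grown without treatment. In m7G MeRIP-seq, an antibody that recognises N7-methylguanosine (m7G), a methylated form of guanosine, enriches the marked pieces of poly(A) RNA before sequencing, and the authors called transcript stretches with such enrichment as peaks. The design comprised 2 input samples and 2 immunoprecipitation (IP) samples; the lists belong to the 2 IP samples (replicates 1 and 2), and the input samples were not analysed here. All samples come from 1 cell line, and whether the replicates were separate cultures is not recorded. The genes were chosen by name alone, as names that begin with RPL or RPS followed by a digit or P and that hold no K, which drops the RPS6K kinases. The rule took 19 of 3355 peaks in replicate 1 and 16 of 4747 in replicate 2, and 21 of 3769 genes that had any peak. Of these 21 genes, 19 encode proteins of the cytosolic ribosome. The other 2 do not belong to it by name: RPL7L1 encodes a relative of RPL7 that acts in assembly of the large subunit, and RPS19BP1 encodes a protein that binds RPS19 and the deacetylase SIRT1. Values of the 19 genes are given without those 2 unless stated.

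Ribosomal proteins fold onto ribosomal RNA to build the small (RPS) and large (RPL, RPLP) subunits, and their mRNAs are among the most abundant of a growing cell. Most of these mRNAs begin at the cap with a C followed by an unbroken run of pyrimidines, the 5' terminal oligopyrimidine (TOP) tract, through which LARP1 and mTOR signalling control their translation. An mRNA carries m7G in its cap, and internal m7G has been described as a separate mark within the transcript.

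Sequences at the annotated gene starts are shown because few ribosomal protein genes had a peak that begins within 200 nt of the start. This distance is genomic and counts introns, and distances along the mRNA were not computed. Each line gives 15 bases before and 15 bases from the outermost RefSeq start of the gene on its own strand (GRCh38.p14), 5' to 3', with the run of C and T that begins at the start in capitals. Sequences matched 16 of the 19 genes; RPL8 and RPS2 were among those not matched. Peaks of RPLP1 and RPLP2 in both lists, and of RPL36 in replicate 1, begin within 200 nt of this start. Those of the other genes printed here begin farther from it by genomic distance.
RPLP1: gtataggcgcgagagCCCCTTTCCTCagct
RPLP2: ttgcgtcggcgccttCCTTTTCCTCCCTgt
RPL36: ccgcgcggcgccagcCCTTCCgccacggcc
RPL28: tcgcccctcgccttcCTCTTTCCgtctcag
RPS19: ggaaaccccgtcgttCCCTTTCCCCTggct
RPS3: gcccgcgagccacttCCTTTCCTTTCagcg
RPL13: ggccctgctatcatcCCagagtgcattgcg
These windows lie at chr15:69452803-69452832 (RPLP1), chr11:809952-809981 (RPLP2), chr19:5690280-5690309 (RPL36), chr19:55385917-55385946 (RPL28), chr19:41860240-41860269 (RPS19), chr11:75399503-75399532 (RPS3) and chr16:89560642-89560671 (RPL13), all on the plus strand.

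A pyrimidine run of at least 5 bases that starts with C was found at the start of 13 of these 16 genes. Among all ribosomal protein genes with an entry the count was 42 of 61 (68.9%), with 29 of 45 for those without a peak, and among all 13819 protein-coding genes with an entry it was 632 (4.57%). RPL13 has a run of 2 bases at its outermost start, and 6 bases at a second RefSeq start 25 nt downstream. RPL3 (run of 4 bases) and RPS4X (0 bases) were the other genes below 5. Only the gene's strand and the exact annotated start were read, so a tract that begins at another base of the same gene is missed. Genes with and without a peak thus both began mostly with such a run.

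The name rule takes 90 protein-coding genes of RefSeq, of which 78 remain without the paralogues named with a final L or L1 (RPL7L1 among them), the readthrough genes and RPS19BP1. Of these 78 genes, 19 (24.4%) had a peak in at least 1 list and 59 had none (all protein-coding genes: 18.7% with a peak, genes not expressed in HepG2 included). The genes with a peak were 12 of 46 large subunit genes (26.1%) and 7 of 32 small subunit genes (21.9%), both not far from that share. Peaks in both lists were found for 10 of the 19 genes (all genes: 51.7% of those with a peak in either list), so the share lies near that of all genes. They included the large subunit genes RPL13, RPL18, RPL28 and RPL36, the stalk genes RPLP1 and RPLP2, and the small subunit genes RPS2, RPS3 and RPS19. Peaks in replicate 1 only were found for RPL3, RPL8, RPL29, RPL35, RPS4X and RPS14, and peaks in replicate 2 only for RPL14, RPL27A and RPS16. Of the 2 other names, RPS19BP1 had a peak in both lists and RPL7L1 in replicate 1 only. A gene without a peak can be one without m7G or one whose m7G was not called, and the lists hold no expression values.

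**Figure D1:**
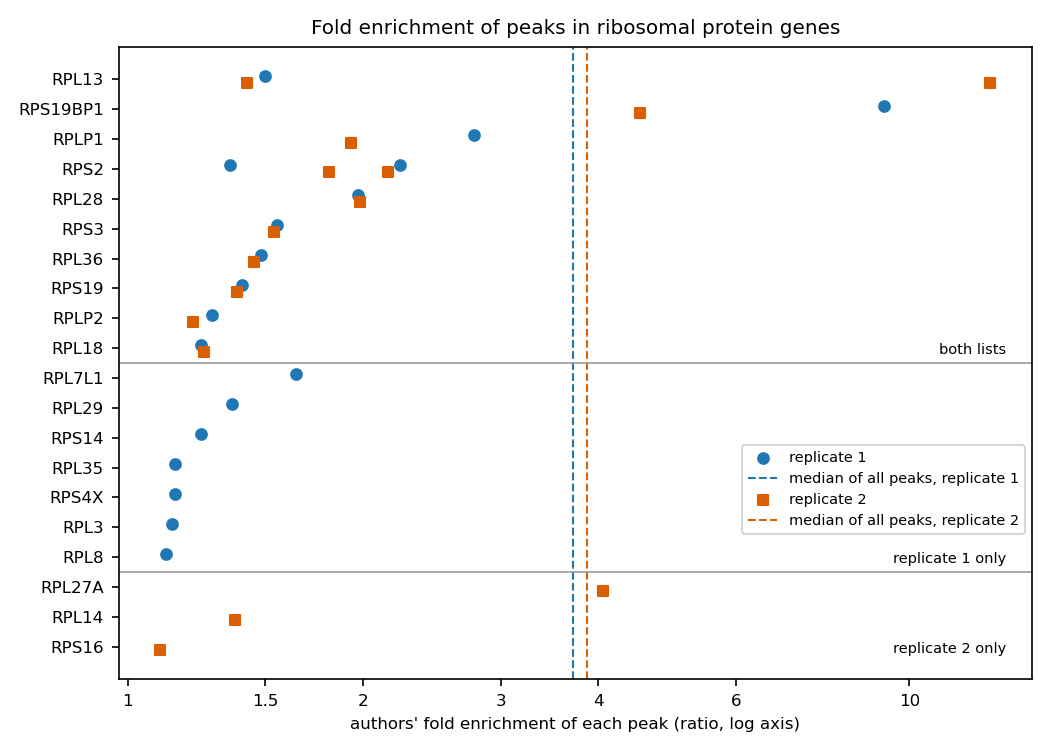
The authors' fold enrichment of each peak (log axis) is plotted for 20 of the 21 genes, with circles for replicate 1, squares for replicate 2 and dashed lines at the medians of all peaks (3.71 and 3.87). Nearly all points lie left of both lines; those to the right belong to RPS19BP1, RPL27A and the second RPL13 peak.

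The stalk of the large subunit, which recruits the translation GTPases, is built from RPLP0 and the acidic proteins RPLP1 and RPLP2. RPLP1 had the smallest p of the ribosomal protein peaks in both lists, with a -log10 p (from the authors' p per peak, higher for stronger evidence) of 260 in replicate 1 and 87.4 in replicate 2. The replicate 1 peak spanned 69452820 to 69455178 of chromosome 15 (GRCh38) and had an enrichment over the authors' comparison (fold) of 2.77. The replicate 2 peak spanned 69452820 to 69453673 and had a fold of 1.93. Both begin 2 nt after the annotated start, within the pyrimidine run shown above, and share a first block of 201 nt. RPLP2 had a peak on chromosome 11 from 809965 to 812760 (fold 1.28) in replicate 1, which begins 2 nt before the annotated start, and from 809994 to 810333 (fold 1.21) in replicate 2, 27 nt after it. The peak of replicate 1 joined 5 blocks along nearly the whole gene, whereas that of replicate 2 kept to the first 2. RPLP0 had no peak in either list.

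Among the small subunit genes, RPS2, whose product lines the mRNA entry channel, was the one with more than 1 peak in both lists. In replicate 1 it had a 5-block peak on chromosome 16 from 1962837 to 1964826 (minus strand, fold 2.23) and a second from 1962090 to 1962522 (fold 1.35). In replicate 2 the first region was called as 2 peaks, from 1964472 to 1964826 (fold 2.15) and from 1962837 to 1963252 (fold 1.81). The peak nearest the cap ends at 1964826, the annotated start of the gene, in both lists. The second peak of replicate 1 had a midpoint 135.5 nt from the 3' end and no counterpart in replicate 2.

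RPS3, also at the mRNA entry, had 2-block peaks on chromosome 11 from 75404701 (fold 1.55) and 75404730 (fold 1.54), in replicates 1 and 2, to 75421766 in both. These peaks span 17066 and 17037 nt of the genome, since the second block of each begins 22209 nt after the annotated start, near the 3' end of the gene. RPS19, a gene mutated in Diamond-Blackfan anaemia, had peaks on chromosome 19 from 41860842 to 41871387 (fold 1.40, 5 blocks) and from 41861195 to 41871358 (fold 1.38, 4 blocks). RPS3 and RPS19 thus had nearly the same fold in both lists, below that of the RPS2 peak at the 5' end.

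Among the large subunit genes, RPL28 had folds of 1.97 in replicate 1 and 1.98 in replicate 2, close to RPLP1 in the latter. Its peaks lay on chromosome 19 from 55386686 and 55387981 to 55388414, with -log10 p of 89.2 and 79.7. RPL13 had peaks on chromosome 16 from 89560974 (fold 1.5) and 89561004 (fold 1.42) to 89561646, with -log10 p of 111 and 47. RPL36 had peaks on chromosome 19 from 5690319 to 5691667 (fold 1.48) and from 5691359 to 5691638 (fold 1.45). The peak of replicate 1 begins 24 nt after the annotated start with a block of 9 nt, and that of replicate 2 begins 1064 nt after it. RPL18 had peaks on chromosome 19 from 48615416 to 48616736 (minus strand, fold 1.24) and to 48616183 (fold 1.25), in the part of the gene toward its 3' end. The folds of these 4 genes differed by less than 1.1 times between the lists.

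RPL13 also held the highest fold of any ribosomal protein peak, 12.7, at a second peak in replicate 2 on chromosome 16 from 89565330 to 89565510. It lies 4673 nt after the annotated start, apart from the 3-block peak, and had a -log10 p of 5.77. The commonest fold of replicate 2 was 6.33, at 196 peaks, and 12.7 equals 2 times that value within rounding. The share of all peaks near 12.7 was not counted, and a link between these values was not tested. RPL27A had a fold of 4.05 in replicate 2 at a single block on chromosome 11 from 8686251 to 8686430, 3459 nt after the annotated start and 3442 nt before the annotated end (-log10 p 5.2). Neither peak had a counterpart in replicate 1. RPS19BP1, which is no ribosomal protein, had folds of 9.27 and 4.52 at a 2-block peak on chromosome 22 that ends at 39532795, 47 nt before its annotated start, and begins at 39532423 in replicate 1 and 39532453 in replicate 2.

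The genes called in replicate 1 only had low folds. RPL8, near the peptidyl transferase centre, had a fold of 1.12 on chromosome 8 from 144789794 to 144791284, and RPL3, which also reaches that centre, a fold of 1.14 on chromosome 22 from 39314770 to 39315441. RPL35, at the exit tunnel, had a fold of 1.15 on chromosome 9 from 124857879 to 124857936, across the annotated 3' end of the gene. RPS4X had a fold of 1.15 on chromosome X from 72273801 to 72273861. RPS14, a gene lost in the 5q- syndrome, had a fold of 1.24 over 3 blocks on chromosome 5 from 150444259 to 150446840, and RPL29 a fold of 1.36 on chromosome 3 from 51993946 to 51994033. RPL7L1, the assembly factor, had a fold of 1.64 on chromosome 6 from 42889327 to 42889447. In replicate 2 only, RPL14 had a fold of 1.37 on chromosome 3 from 40462018 to 40462165, and RPS16, whose tail reaches the P site, a fold of 1.1 on chromosome 19 from 39433561 to 39433715. Peaks of genes called in 1 list had a lower median -log10 p than peaks of genes called in both, 6.88 against 31.3 in replicate 1 and 5.71 against 27 in replicate 2. RPS14 (20.6) was the highest of those called in 1 list. Over all genes, the overlap of single peaks was taken, a different measure from genes called in both lists. Of all peaks with a -log10 p of 20 or more, 98.3% and 99.7% overlapped a peak of the other list by 50% of the shorter peak, against 65.1% and 45.4% of all peaks. By the same measure, ribosomal protein peaks in that range of p had 90% and 100%, against 58.8% and 73.3% of all ribosomal protein peaks.

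**Figure D2:**
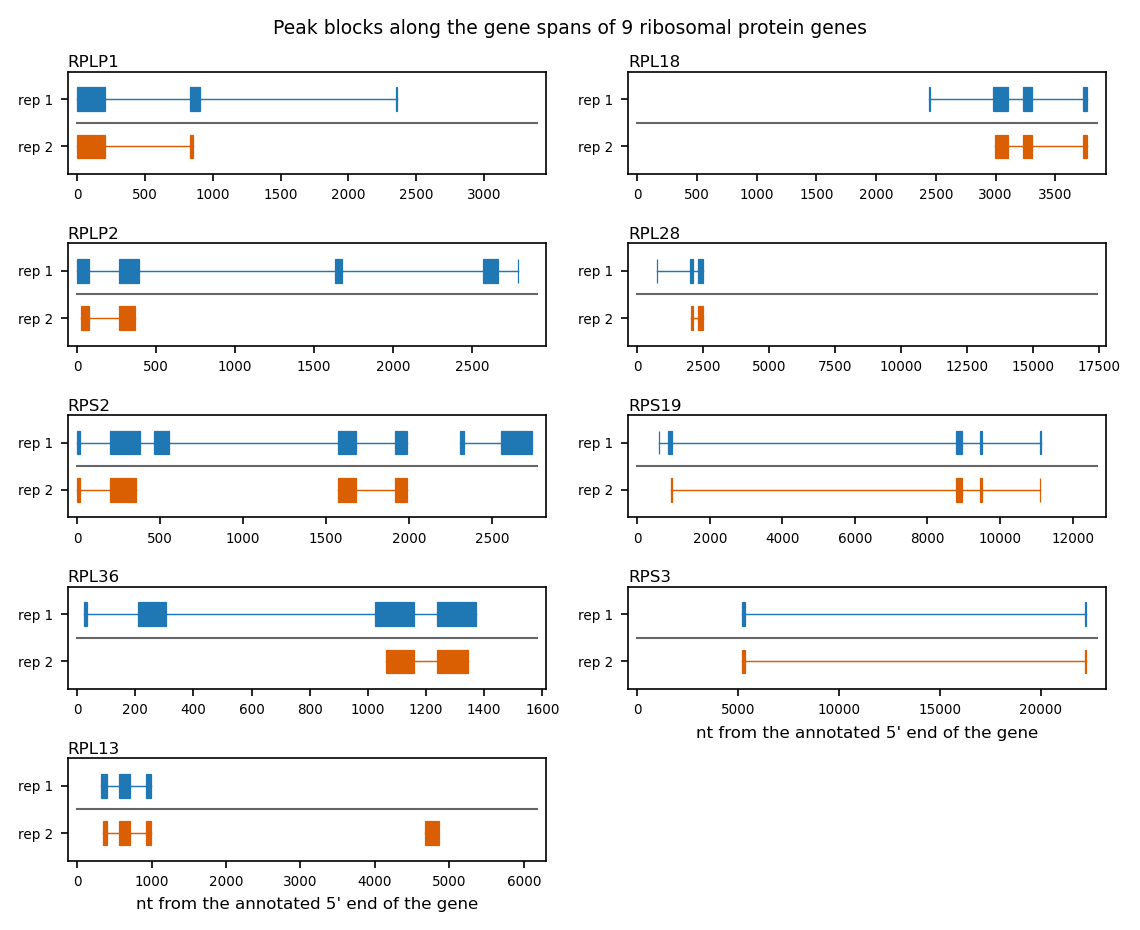
Blocks of each peak (boxes, joined by a thin line) are drawn to scale along the gene's annotated span (grey line) for 9 of the 10 ribosomal protein genes with peaks in both lists, replicate 1 above and replicate 2 below; the x axis is nt from the annotated 5' end and its scale differs between genes. RPLP1, RPLP2 and RPS2 have blocks at the 5' end in both lists and RPL36 in replicate 1, and no replicate 1 peak is shorter than the replicate 2 peak it overlaps.

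The peaks of ribosomal protein genes mostly joined several blocks. A peak was spliced, that is, made of more than 1 block, for 14 of 17 peaks in replicate 1 (all peaks: 26.4%) and 12 of 15 in replicate 2 (all peaks: 28.2%). All 11 replicate 1 peaks of the 10 genes in both lists were spliced. Peaks of 3 or more blocks made up 10 of 17 in replicate 1 (all peaks: 5.81%) and 3 of 15 in replicate 2 (all peaks: 6.09%). Some blocks were very short: in replicate 1, RPL28 and RPL8 reached 3 blocks through a block of 8 nt and RPLP1 through a block of 9 nt. The median length over blocks was 237 nt in replicate 1 and 180 nt in replicate 2, against 151 nt for all peaks of either list. The order turned among peaks with a -log10 p of 20 or more. There the median length was 292 and 218 nt for ribosomal protein peaks and 358 and 359 nt for all peaks. In that range all 10 and 8 ribosomal protein peaks were spliced, against 49.7% and 51.9% of all peaks. The lengths ranged from 58 nt in RPL35 to 471 nt in RPS2. Introns that the peaks cross in RPL13, RPL3, RPLP2 and RPS2 hold the small nucleolar RNA genes SNORD68, SNORD83A, SNORA52, and SNORA10 and SNORA64, and no base of a peak block fell in them.

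Where peaks of both lists shared a base (11 pairs in 10 genes, the 5-block peak of RPS2 entering with both peaks of replicate 2), the replicate 2 peak lay wholly within a longer replicate 1 peak for 10 pairs and had identical blocks for the other. Among all 2305 such pairs of the lists, 24.3% had replicate 2 within a longer replicate 1 peak, 40.8% the reverse and 9.54% identical blocks. For RPL36 the shared bases made up 53.9% of the replicate 1 peak and for RPLP2 42%. By the rule of 50% of the shorter peak, 10 of 17 replicate 1 peaks (all peaks: 65.1%) and 11 of 15 replicate 2 peaks (all peaks: 45.4%) had a partner. Replicate 1, the list with fewer peaks, thus held the longer ribosomal protein peaks.

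By genomic distance, the peaks were seldom centred on the capped end. RPLP1 was the one ribosomal protein gene whose midpoint lay within 200 nt of the annotated 5' end with introns counted, at 144.5 nt in replicate 1 and 116 nt in replicate 2. This was 1 of 17 peaks in replicate 1 (all peaks: 27.4%) and 1 of 15 in replicate 2 (all peaks: 21.6%). RPS19BP1 lay there too, with midpoints at 58 and 43 nt. Counted by the first base of the peak, 4 of 17 peaks in replicate 1 (RPLP1, RPLP2, RPS2 and RPL36; all peaks: 36.4%) and 3 of 15 in replicate 2 (RPLP1, RPLP2 and RPS2; all peaks: 30.8%) began within 200 nt of that end. Midpoints within 200 nt of the 3' end were found for 3 of 17 replicate 1 peaks (RPL8, RPL35 and the second RPS2 peak; all peaks: 3.43%) and 0 of 15 replicate 2 peaks (all peaks: 3.46%). Distances are genomic and include introns, also those inside a peak. The RPS2 peak of replicate 2 begins at the annotated start with blocks of 20 and 157 nt, yet its midpoint lies at 266.5 nt. Among spliced peaks alone, the share of midpoints within 200 nt of the 5' end was 7.14% and 8.33% for ribosomal protein genes, against 28.7% and 22.1% for all genes. Distances along the mRNA were not computed. Gene spans follow the outermost RefSeq transcripts, so a long variant places a peak farther from the end.

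The folds were low beside those of other peaks while the p-values were small. The median fold was 1.35 in replicate 1 (17 peaks, 1.12 to 2.77) and 1.45 in replicate 2 (15 peaks, 1.1 to 12.7), against 3.71 and 3.87 for all peaks. Folds under 2 made up 15 of 17 peaks in replicate 1 (all peaks: 17.1%) and 12 of 15 in replicate 2 (all peaks: 13.0%). The exceptions were RPLP1 in replicate 1, a peak of RPS2 in each list, and RPL13 and RPL27A in replicate 2. A -log10 p of 20 or more was reached by 10 of 17 peaks in replicate 1 (all peaks: 10.6%) and 8 of 15 in replicate 2 (all peaks: 7.39%). Within that range of p, the median fold of all peaks was 3.67 in replicate 1 (356 peaks) and 3.95 in replicate 2 (351 peaks), and that of ribosomal protein peaks 1.49 and 1.44. Spliced peaks had a median fold of 3.35 and 3.71 over all genes, and 1.38 and 1.44 over ribosomal protein genes.

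At the low end of the lists, ribosomal protein genes held 8 of the 75 peaks with a fold under 1.3 in replicate 1 (10.7%) and 4 of 63 in replicate 2 (6.35%), while they made up 0.507% and 0.316% of all peaks. Large and small subunit genes had nearly the same median fold, 1.32 and 1.35 in replicate 1 and 1.45 and 1.46 in replicate 2. The number of reads behind the peaks is unknown here, and the part of transcript abundance in these folds and p-values was not tested.

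**Figure D3:**
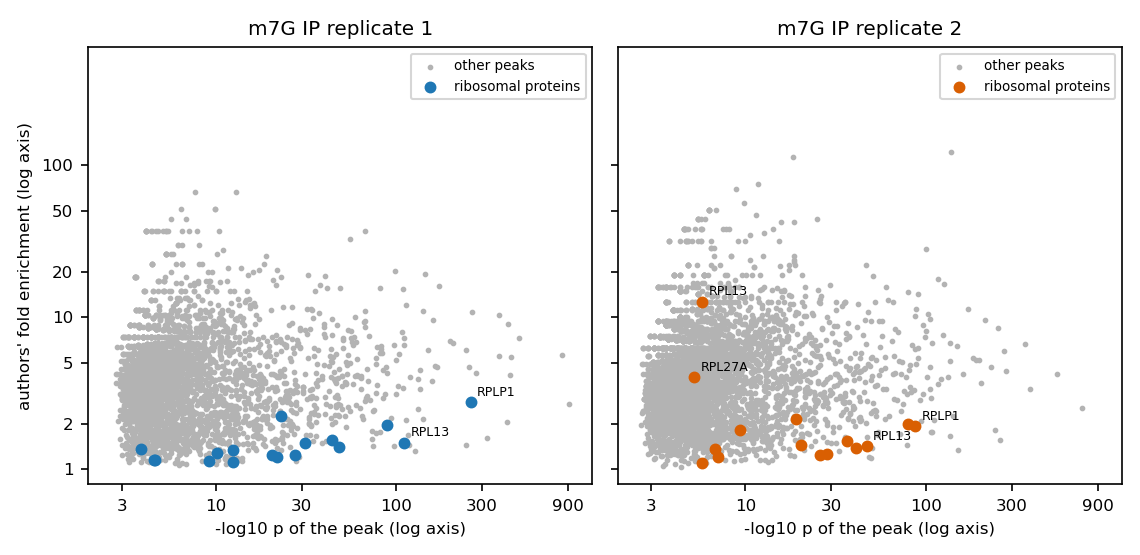
The fold of each peak is plotted against its -log10 p (both log axes) for each list, with ribosomal protein genes in colour and other peaks in grey. Most coloured points run along the lower edge of the cloud, up to RPLP1 at a -log10 p of 260 and a fold of 2.77 in replicate 1, and the second RPL13 peak (12.7) and RPL27A (4.05) lie within the cloud in replicate 2.

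The folds of the same gene were close between the lists. Across the 11 pairs the higher fold was 1.01 to 1.44 times the lower (median 1.04), and 9 pairs lay within 1.1 times, against a median of 1.26 and 23.8% within 1.1 times for all 2305 pairs. RPLP1 (2.77 and 1.93) and RPS2 (2.23 and 1.81) were the 2 pairs outside. Most of the 11 pairs had folds under 2 in both lists, where a ratio has less room to spread. The 2305 pairs were not matched for fold, so closeness at like fold was not tested. The ranks of fold (Spearman's rho = 0.90) and of -log10 p (rho = 0.89) went together over these pairs, which come from the same transcripts. Which libraries the authors' fold compares is not stated, and both values may share an input. The -log10 p was higher in replicate 1 for 10 of 11 pairs. RPS19BP1, by contrast, differed by 2.05 times.

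Other genes of the ribosome and its synthesis were set beside them. Of 22 other TOP mRNAs, 9 had a peak (40.9%; all protein-coding genes: 18.7%) and 5 of these 9 were in both lists (55.6%; all genes with a peak: 51.7%), with a median fold of 1.42 in replicate 1 and 1.59 in replicate 2. They included the elongation factor EEF2, with 4 peaks of folds 1.09 to 1.75 in replicate 1 and 5 of 1.16 to 1.77 in replicate 2, and the growth-related TPT1, with folds of 1.49 and 1.38 at midpoints 79 and 64 nt from the 5' end. RACK1, a scaffold on the small subunit, had folds of 1.07 and 1.09 in replicate 1 only. The poly(A)-binding protein gene PABPC1 had the highest fold of this list in replicate 1, 2.49, at a block of 537 nt whose midpoint lay 418.5 nt from the 5' end and which recurred in replicate 2 with a fold of 2.09. EEF1A1 (7.38) and EIF3F (3.95) had the highest folds of the list and were called in replicate 2 only. Their -log10 p was 3.36, the lowest of this list in that replicate, and 6.3.

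Genes that act on TOP mRNAs or build ribosomes had higher median folds than ribosomal protein genes. Beside the medians of all peaks (3.71 and 3.87), only the biogenesis median of replicate 2 was higher. Of 17 regulators of TOP mRNA translation 10 had a peak (58.8%; all protein-coding genes: 18.7%), 8 of these in both lists (80%; all genes with a peak: 51.7%), with medians of 3.56 and 2.98. Genes were counted in both lists by name, whether or not their peaks overlapped. The peaks of MTOR, of EIF2S3 among the other TOP mRNAs and of GRWD1 among the biogenesis genes did not overlap between the lists. LARP1, which binds the TOP tract, had folds of 3.58 and 2.14. Of 48 ribosome biogenesis genes 16 had a peak (33.3%), 9 of these in both lists (56.2%, near the 51.7% of all genes with a peak), with medians of 2.96 and 4.57. FBL, the fibrillarin methyltransferase, had folds of 3.74 and 6.63 and the helicase gene DDX51 10.2 and 21.5. Of 77 mitochondrial ribosomal protein genes, whose products translate the mitochondrial genome, 12 had a peak (15.6%, below the 18.7% of all protein-coding genes), 5 of these in both lists (41.7%, against 51.7%), with medians of 2.88 and 3.21. MRPL41 had folds of 4.02 and 3.26 and MRPL37 folds of 3.27 and 3.53, the latter at midpoints 119 and 163.5 nt from the 5' end. Spliced peaks made up 2 of 8 (all peaks: 26.4%) and 4 of 10 (all peaks: 28.2%) peaks of the mitochondrial list. Differences between these lists were not tested.

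**Figure D4:**
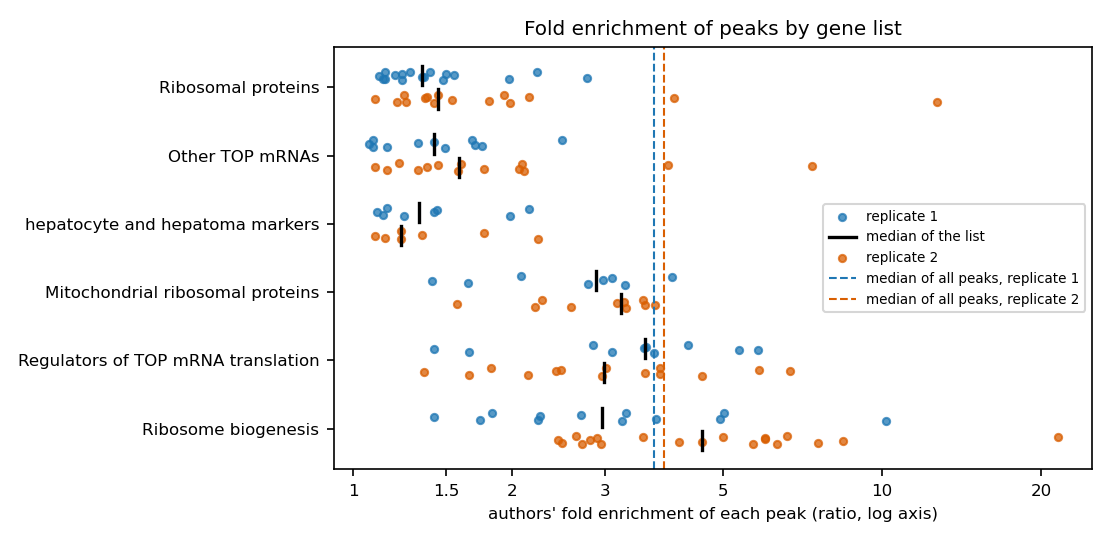
Folds of single peaks (points, log axis) are plotted by gene list and replicate, with black bars at the list's median and dashed lines at the medians of all peaks. Ribosomal proteins, other TOP mRNAs and hepatocyte markers lie mostly below a fold of 2, while the medians of the other 3 lists lie between 2.88 and 4.57.

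As a check of the labelled cell type, 5 of 13 hepatocyte and hepatoma markers (APOA1, APOB, APOE, SERPINA1 and TF) had peaks in both lists and the other 8, ALB and AFP among them, had none (all protein-coding genes: 18.7% with a peak). Their median folds were 1.33 and 1.23, beside 1.35 and 1.45 for the ribosomal protein genes. Of 6 immune markers CD68 (folds 4.15 and 3.95) and LYZ (6.73 and 2.36) had peaks in both lists, and of 6 endothelial and stellate markers ACTA2 (3.69 and 2.74) did, all above the hepatocyte medians. A peak list does not show expression, so these peaks do not settle the cell type, and the part of other cells was not tested. Near-identical copies limit the assignment of reads: RefSeq names between 0 (RPS19BP1) and 55 (RPS2) pseudogenes after these 21 genes, and reads from a copy cannot be told apart in these lists. No row of the 21 genes repeated the position of another row.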

How the data were processed

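HepG2 poly(A) RNA was the source of 2 input and 2 m7G IP samples, per the labels' protocols. Per the submitters' processing notes, STAR and GRCh38 were used, with no version. For the peak caller and its filters, the entry is "not given in the sources used here"; read numbers are unknown. The authors deposited 1 peak list per IP sample, with position, blocks, p-value, log10 p and FDR and fold per peak, per the file headers. The deposited p-value is 0 for 9 and 4 peaks, so the deposited log10 p score was used in its place, with its sign turned. The deposited fold is a ratio above 1 at every peak, with its scaling unstated. These are the authors' own values and served to describe and rank peaks; no test was run, since the lists form 1 group of 2.

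Genes were matched to RefSeq spans (GRCh38.p14) by current or, at the same position, former symbol (3352 and 4739 peaks; 3 and 8 were left out of positions). Midpoints run along blocks, and positions are 1-based. Peaks of the lists were compared per gene and strand, with a partner overlapping at least 50% of the shorter peak. Genes in both lists were counted by name alone. Every gene of the name rule may be named; other genes come from lists of TOP mRNAs, their regulators, ribosome biogenesis, mitochondrial ribosomal proteins and cell type markers. Of the genes counted, 2 stay in the counts and medians, and their own results are not reported here. Members and lists were chosen with earlier results of these data known. Placement and overlap were tested on simulated data. Alternatives were stricter peaks, other overlaps and windows, other units and each replicate alone. Tables were made with pandas 2.3.3, scipy 1.17.1 and numpy 2.4.6 under Python 3.11.15, and figures with matplotlib 3.10.9.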

Additional observations from a re-analysis of the deposited data

How the results depend on the processing

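Values here cover all names of the rule, as a mean over the lists, and carry no test. Genes in both lists numbered 11, and 7 with 80% reciprocal overlap, where fewer pass by construction. The share of peaks with a partner was 66.4%, and 40.3% with 80% reciprocal overlap. It was 57.9% of replicate 1 peaks and 75% of replicate 2 peaks, each set against the other list, so no replicate can be left out of this share. Midpoints within 200 nt of the 5' end made up 11.5% of peaks. The share was 5.76% for 100 nt, 23% for 500 nt, 25.7% by the first base, 12.9% in the smaller-p 50% of each list, and 6.27% without RPL7L1 and RPS19BP1, a setting chosen after seeing the data. It was 10.5 to 12.5% with 1 replicate left out. The median fold was 1.43, with 1.36 to 1.5 when 1 replicate was left out. Spliced peaks made up 80.1%, with 35.7% for more than 2 blocks, 90.6% among the smaller-p peaks and 78.9 to 81.2% with 1 replicate left out. The median length was 196 nt, with 853 nt for the genomic span, 232 nt among the smaller-p peaks and 180 to 211 nt with 1 replicate left out. No paired analysis was possible because the lists cover 1 group, the IP samples. Which peaks could be called depends on read depth, which the lists do not give.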
